A study of Mus musculus with 4 samples.

Results

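To describe Notch signaling in the mouse mesoderm, the transcripts of 10 genes were followed: the ligands Dll1, Dll4 and Jag1, the receptors Notch1, Notch2 and Notch3, and the target genes Hes1, Hey1, Hey2 and Heyl. They were chosen by symbol and not by their levels, though with earlier results of these data known. They are 10 of the 27998 genes in the deposited tables, with 1 row each. The cells were of the Mesp1 lineage, in which Cre made from the Mesp1 gene permanently turns on GFP in early mesoderm and its progeny. All 4 libraries had the genotype Mesp1Cre;Rosa26-GFPflox/+ on the Swiss Webster strain, named no Notch allele and came from pooled embryos, 1 library per stage. The stages, in days of embryonic development, were E8.0, then E8.25, E9.5 and last E10.5, and values in stage order follow this sequence. Living GFP+ cells were sorted from the upper body in the early libraries (E8.0, E8.25), and from pharyngeal apparatus and heart together in the late ones (E9.5, E10.5). Tissue therefore changed together with stage between the early and the late libraries, and their parts in a difference between these cannot be told apart.

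Notch receptors are cut after they meet a ligand on a neighboring cell, and the freed intracellular part enters the nucleus and acts there with the DNA-binding protein RBPJ. Hes and Hey genes are the classic targets and encode repressors of transcription. In the embryo the pathway is known for its roles in arterial identity of blood vessels, in the endocardium and the valves and chambers of the heart, and in the segmentation of paraxial mesoderm into somites.

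Promoter sequences are shown because RBPJ acts on target genes through sites that can lie near their start. RefSeq windows of 250 bases before and 50 after the start (GRCm38.p6) were at hand for 7 of the 10 genes, and Hey2 was the only target among them. GTGGGAA, a core of the RBPJ site, was searched on either strand. It occurred only in the Hey2 window among the 7 genes, at 207 bases (as TTCCCAC, the other strand) and at 4 bases before the start, and 6.38% of all 32851 windows held it. CACGCG, a sequence bound by Hes and Hey proteins, was searched in the same way and does not overlap GTGGGAA. It occurred in the windows of Dll4, Jag1 and Notch2 and in the Dll1 window at chr17:15376883-15377182, against 9.27% of all windows. The 7 genes had 8 windows, and the further Dll1 window held no match. The Hey2 window (chr10:30842734-30843033, minus strand) and the window of the ligand Dll4 (chr2:119325534-119325833, plus strand) are given 5' to 3', with the matches in capitals, and a match is a description of the letters only.
Hey2: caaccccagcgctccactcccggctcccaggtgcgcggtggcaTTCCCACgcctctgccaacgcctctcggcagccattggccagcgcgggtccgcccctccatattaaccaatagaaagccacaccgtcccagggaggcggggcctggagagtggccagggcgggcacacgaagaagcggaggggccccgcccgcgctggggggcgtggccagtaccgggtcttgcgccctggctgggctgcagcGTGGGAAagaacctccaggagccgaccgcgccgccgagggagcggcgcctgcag
Dll4: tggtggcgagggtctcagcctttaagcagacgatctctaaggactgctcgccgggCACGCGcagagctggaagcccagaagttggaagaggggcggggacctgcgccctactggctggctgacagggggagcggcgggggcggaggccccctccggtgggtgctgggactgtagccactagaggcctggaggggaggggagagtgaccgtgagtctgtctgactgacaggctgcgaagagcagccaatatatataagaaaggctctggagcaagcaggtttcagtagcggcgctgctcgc

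After filtering, 21445 cells remained, between 2884 and 7523 per library, with a median of 15208 to 35216 UMIs (unique molecular identifiers, which count captured molecules) per cell. Libraries shared 16 to 88 cell barcodes with each other. Cells were assigned to compartments by marker genes. Endothelial cells carried at least 4 of 8 markers (Cdh5, Pecam1, Esam, Cldn5, Tie1, Tek, Ecscr, Emcn) and were endocardial with at least 1 UMI of Nfatc1, otherwise vascular endothelial. There were 311, 137, 124 and 227 vascular endothelial cells in stage order, and 153, 50, 92 and 157 endocardial cells. Cardiomyocytes, by 8 sarcomere genes, numbered 315, 54, 470 and 254. Paraxial cells carried at least 2 of 8 markers such as Meox1, Tcf15 and Tbx6 and numbered 1656, 1124, 71 and 329. This gate was broad, as 886 of these cells at E8.0 and 653 at E8.25 carried exactly 2 markers. Blood cells were gated apart, and the remaining 4614, 1204, 3147 and 5453 cells are called other. Of these other cells, 1730, 731, 664 and 1253 in stage order carried 1 paraxial marker. All 8 endothelial markers were above 5 CPM in each endothelial sum, and all 8 cardiomyocyte genes in each cardiomyocyte sum. Hemoglobin transcripts, which leak from red cells, summed to between 5067 and 5150 CPM in every compartment other than blood at E10.5 and to between 6.64 and 44.3 CPM at E9.5. The level of a gene is given in CPM, its UMIs per 1000000 UMIs of the summed cells, and levels are compared within a gene only.

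Over all retained cells, 8 of the 10 genes differed between E8.0 and E10.5 by more than counting error, 3 upward and 5 downward, and Dll4 and Notch2 lay within it. The share of all genes that differed in this way was not counted, so the 8 of 10 is not read as particular to these genes. With 1 library per stage these differences have no replicate check, and the intervals (95%) cover counting error only. Fewer cells of a type and less RNA per cell cannot be told apart in such totals. Heyl showed the widest span, with 0.323, 0.745, 2.46 and 3.65 CPM in stage order, so its last level was 11.3-fold its first, a log2 ratio of 3.50 (3.07 to 3.95). Notch3 stood at 9.01, 10.3, 14.4 and 16.7 CPM, higher at each later stage. Hey1 peaked at E9.5, with levels of 17.8, 10.6, 41.9 and 23.4 CPM in stage order. Dll1 went from 2.55 to 1.31 CPM between the first and the last stage, which is -0.97 (-1.24 to -0.70) on the log2 scale. Without blood and mixed cells the direction of the 8 differences held, while Jag1 came within counting error (-0.07 on the log2 scale) and Dll4 (0.31) and Notch2 (0.27) became higher at E10.5.

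**Figure D1:**
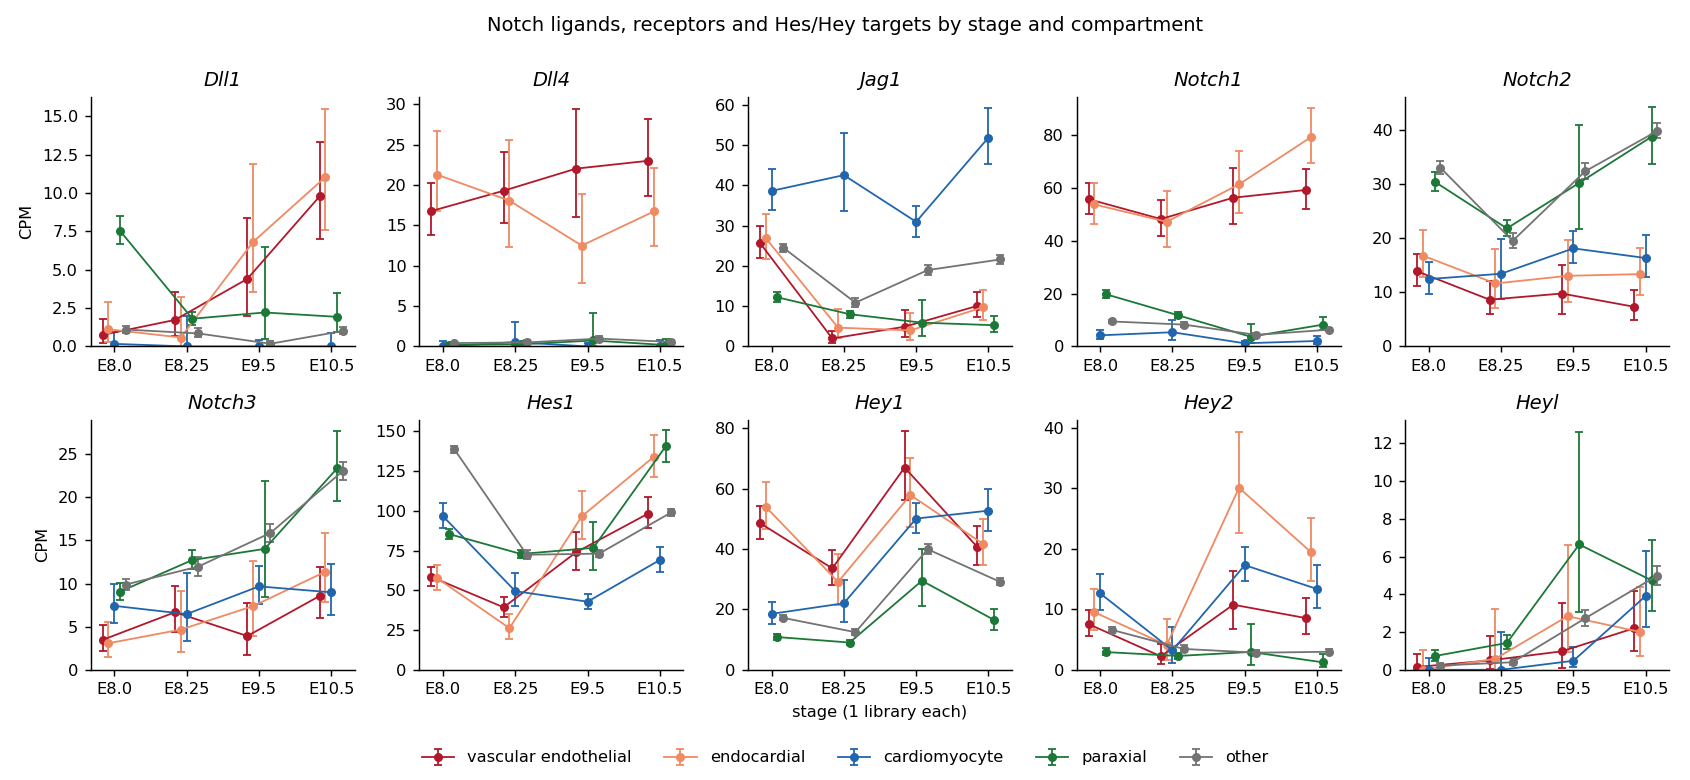
Level (CPM, linear axis from 0, own scale per gene) of each of the 10 genes by stage, 1 line per compartment, with exact Poisson 95% intervals for counting error and 1 library per point. Dll4 and Notch1 lie highest in the endothelial compartments at all stages, Jag1 in cardiomyocytes, and in the other cells Heyl and Notch3 end above their E8.0 level.

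The first comparison asked which members mark vascular endothelium against the other mesodermal cells. Dll4, Notch1, Dll1 and Hey1 were higher and Notch2 and Notch3 lower in vascular endothelial cells, so that the receptors split by compartment. In the test (edgeR, library as a block, Benjamini-Hochberg adjustment over 12483 genes, threshold 0.05) 4 members were higher and 2 lower, where 18.3% of all genes were higher and 16.5% lower. The median log2 fold change was 0.20 over the members and -0.02 over all genes tested.

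Dll4, the ligand of arterial and tip endothelial cells, stood at 16.8, 19.3, 22.0 and 23.0 CPM in vascular endothelial cells in stage order, and at 0.421, 0.4995, 0.972 and 0.559 CPM in other cells. Every vascular level was more than 10 times every level in other cells. The log2 fold change of Dll4 was 5.17 ± 0.31 (SE, 35.9-fold, edgeR adjusted p = 3.3e-10), higher in 4 of 4 libraries. Cells with at least 1 Dll4 UMI made up 23.8%, 30.7%, 23.4% and 26.4% of vascular endothelial cells, and 0.867%, 1.58%, 1.49% and 0.752% of other cells, at median depths of 15903 to 28498 and 14035 to 33183 UMIs. In erythroid cells, which should lack it, the Dll4 share was 1.49% of 67 cells at E8.0, 0.952% of 315 at E8.25 and 0.390% of 1026 at E10.5, at median depths of 35904, 52203 and 28150 UMIs. Per UMI, erythroid Dll4 was at 0.440, 0.178 and 0.142 CPM at these 3 stages (1, 3 and 4 UMIs). The level in other cells was thus close to the erythroid level at E8.0 and above it at E8.25 and E10.5, differences that were not tested. Among all retained cells, 133, 106, 21 and 42 in stage order carried exactly 3 endothelial markers, just under the gate of 4. The part of such cells in the Dll4 level of other cells was not tested.

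Dll1, the ligand best known from the segmenting mesoderm, stood at different levels by stage. Its vascular endothelial level was 0.755 CPM at E8.0 (5 UMIs), 1.73 at E8.25 (7 UMIs), 4.40 at E9.5 (9 UMIs) and 9.78 at E10.5 (40 UMIs), against 1.10, 0.849, 0.177 and 1.01 CPM in other cells. The vascular level was within counting error of other cells in the early libraries and above them in the late ones. The log2 fold change of Dll1 was 2.30 ± 0.74 (SE, edgeR adjusted p = 0.0217). The call was lost without E9.5 (log2 1.75, adjusted p = 0.150) and without E10.5 (log2 1.47, adjusted p = 0.243), and with the 4-gene endocardial gate (log2 1.65, adjusted p = 0.118).

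Jag1, a ligand of arteries, heart and many mesenchymal cells, stood at 25.7 CPM in vascular endothelial cells at E8.0 and at 1.98, 4.89 and 10.0 CPM at the following stages. In other cells it was 24.5, 10.9, 18.9 and 21.6 CPM. Vascular Jag1 was level with other cells at E8.0 and below them in the 3 later libraries. Its log2 fold change of -0.88 ± 0.40 (SE) did not pass the test (edgeR adjusted p = 0.0979), but did without E8.0 (-1.55, adjusted p = 0.00902), when cells were thinned to 8000 UMIs (-1.14, adjusted p = 0.0318) and with the stricter gates (-1.05, adjusted p = 0.0246).

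Among receptors, Notch1, the main receptor of endothelium, held 55.7, 48.2, 56.3 and 59.2 CPM in vascular endothelial cells from E8.0 to E10.5, against 9.46, 8.27, 4.38 and 6.33 CPM in other cells. The groups did not overlap and the vascular levels of Notch1 differed by little between stages. Its log2 fold change was 3.11 ± 0.30 (SE, 8.61-fold, edgeR adjusted p = 2.5e-07). Notch2, a broadly expressed receptor of mesenchyme, was lower in vascular cells, at 13.9, 8.65, 9.79 and 7.34 CPM against 33.1, 19.5, 32.4 and 39.9 CPM, a log2 fold change of -1.49 ± 0.19 (SE, edgeR adjusted p = 8.25e-06). Notch3, the receptor of mural cells around vessels, was likewise lower, at 3.47, 6.68, 3.91 and 8.56 CPM against 9.89, 12.0, 15.9 and 23.0 CPM, a log2 fold change of -1.27 ± 0.23 (SE, edgeR adjusted p = 0.00025). For both receptors all 4 libraries went downward.

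Of the targets, Hey1 alone passed the test in vascular endothelial cells. It stood at 48.6, 33.6, 67.0 and 40.9 CPM there and at 17.2, 12.5, 39.95 and 29.1 CPM in other cells, a log2 fold change of 1.15 ± 0.22 (SE, edgeR adjusted p = 0.000471), higher in 4 of 4 libraries. The groups of Hey1 levels overlapped, since the E9.5 level in other cells was above the vascular level at E8.25, and the call was lost without the library block (adjusted p = 0.0594). Hes1, a target in many tissues, was lower in vascular than in other cells at E8.0 (58.5 against 138.7 CPM) and E8.25 (39.3 against 72.4 CPM), and within counting error of them at E9.5 (73.9 against 73.1 CPM) and E10.5 (98.3 against 99.1 CPM). Hes1 did not pass the test (log2 fold change -0.45 ± 0.30, edgeR adjusted p = 0.258) except with the 4-gene endocardial gate (-0.91, adjusted p = 0.0153). Hey2, a target of artery and ventricle, was above other cells at E9.5 (10.8 against 2.83 CPM) and E10.5 (8.56 against 2.98 CPM) and within counting error at E8.0 and E8.25, with 0.84 ± 0.42 (SE) on the log2 scale and an edgeR adjusted p of 0.132. Heyl had 1 to 9 UMIs per vascular sum, and its log2 fold change of -0.76 ± 0.56 (SE) did not pass (edgeR adjusted p = 0.315).

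**Figure D2:**
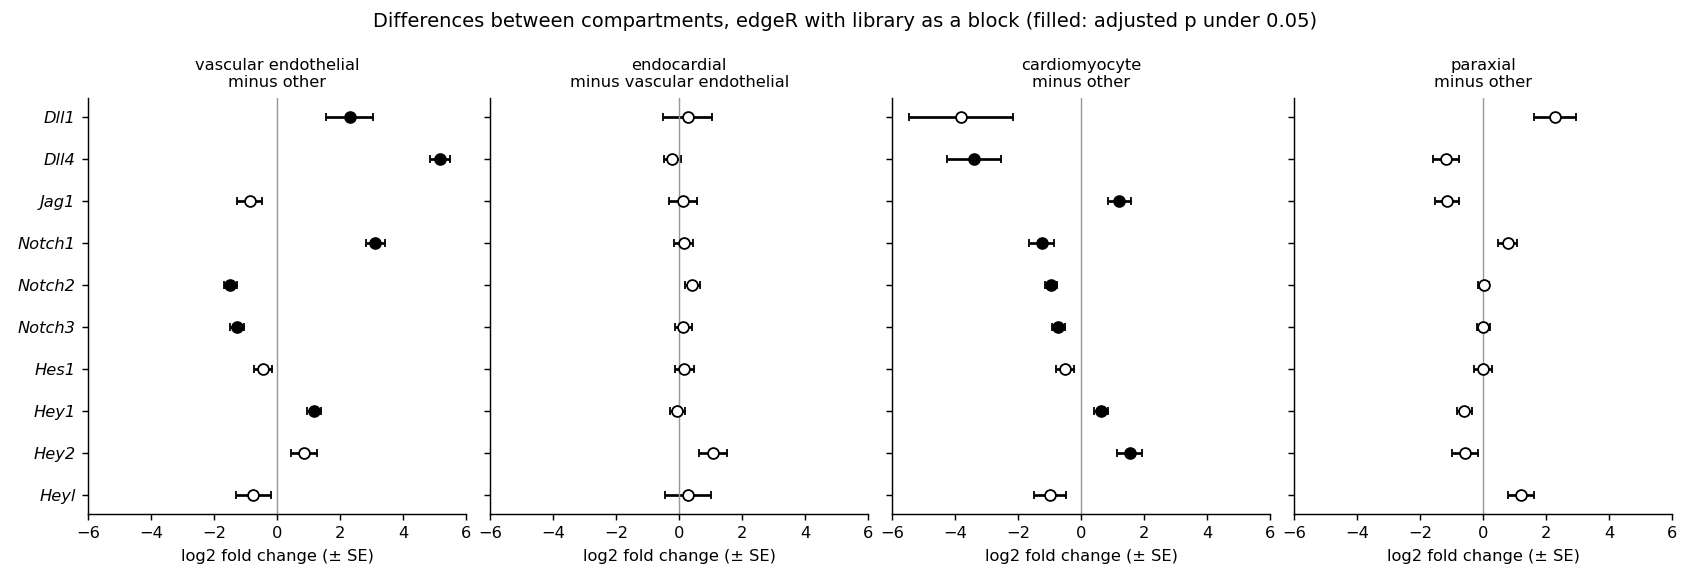
Log2 fold change of each gene in 4 comparisons of compartments, with its standard error as bars, from 4 libraries. Filled points passed an adjusted p of 0.05 in edgeR. In vascular endothelium Dll4 (5.17) and Notch1 (3.11) lie far to the right while Notch2 (-1.49) and Notch3 (-1.27) lie to the left, and no point is filled for endocardial or paraxial cells.

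Within vascular endothelium, cells with at least 2 of the arterial markers Gja4, Gja5, Sox17 and Unc5b were set against the rest. The comparison asked which members go with these markers, and arterial means this gate only. Gja4, Gja5 and Sox17 were called higher in vascular endothelial than in other cells. Unc5b was not, at a mean of 33.6 against 30.1 CPM (edgeR adjusted p = 0.197). Hey1 rose in arterial cells and was the only member called. Of all 8960 genes tested, 0.0335% (3 genes) were higher and 0.0112% (1 gene) lower. Named after their values were seen, the other 2 higher genes were Id1 (log2 0.85) and Cyp26a1 (1.67). The lower gene was Nr2f2 (-0.98, edgeR adjusted p = 0.00623), which encodes a factor of venous identity and belongs to the pathway list. Of the 5 arterial and venous genes of that list tested here, Efnb2 (0.85), Ephb4 (0.09), Nrp2 (-0.37) and Aplnr (-0.59) were not called. Of the members 8 were tested, since Dll1 and Heyl had too few counts, and 6 of the 8 had an unadjusted p under 0.05 in edgeR, against 426 of all genes.

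Hey1 held 65.4, 72.3, 194.4 and 74.8 CPM in arterial cells in stage order, against 23.4, 9.61, 9.92 and 18.0 CPM in the other vascular cells. All arterial levels lay above all others, with the E9.5 arterial level standing apart. The log2 fold change of Hey1 was 2.46 ± 0.30 (SE, 5.50-fold, edgeR adjusted p = 0.00623), higher in 4 of 4 libraries. Without the library block the adjusted p was 0.858, and with looser gates 0.287, at log2 fold changes of 2.63 and 2.51. The arterial sums rested on 173, 53, 37 and 87 cells.

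Dll4 was not higher in arterial cells at E8.0, where it stood at 15.1 against 19.3 CPM, within counting error. At E8.25 it was 38.1 against 7.61 CPM, at E9.5 49.0 against 9.92 CPM and at E10.5 34.7 against 15.1 CPM, each beyond counting error. The log2 fold change of Dll4 over the 4 libraries was 1.16 ± 0.35 (SE) and did not pass (edgeR adjusted p = 0.611), but without E8.0 it was 1.82 (adjusted p = 0.000611) and with cells thinned to 8000 UMIs 1.44 (adjusted p = 0.0102). With no filter on low counts Dll4 (1.15) and Hes1 (0.58) were also called, at adjusted p of 1.17e-05 and 0.0102, whereas Hes1 turned to -0.19 (adjusted p = 0.878) in thinned cells. At E8.0 the arterial cells also had less of the endothelial gate genes in sum (806 against 1110 CPM, with all 8 detected in each group), while they had more at E8.25 (1592 against 1142 CPM) and E9.5 (2299 against 1885 CPM) and slightly less at E10.5 (2257 against 2329 CPM). The part of these differences in the Dll4 values was not tested.

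Jag1 went the other way in time. It was 36.2 against 9.82 CPM at E8.0 (144 and 26 UMIs), a log2 ratio of 1.88 (1.27 to 2.55) in favor of arterial cells, and within counting error in the 3 later libraries, which held 1, 2 and 19 arterial Jag1 UMIs. Over all libraries the log2 fold change of Jag1 was 0.89 ± 0.39 (SE, edgeR adjusted p = 1.00). Hes1 stood at 74.0, 51.7, 74.3 and 118.7 CPM in arterial and at 35.1, 31.6, 73.7 and 84.7 CPM in other vascular cells, which gave a log2 fold change of 0.58 ± 0.16 (SE, edgeR adjusted p = 0.365). Hey2 was 17.6 against 2.45 CPM at E10.5 and within counting error at the other stages.

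**Figure D3:**
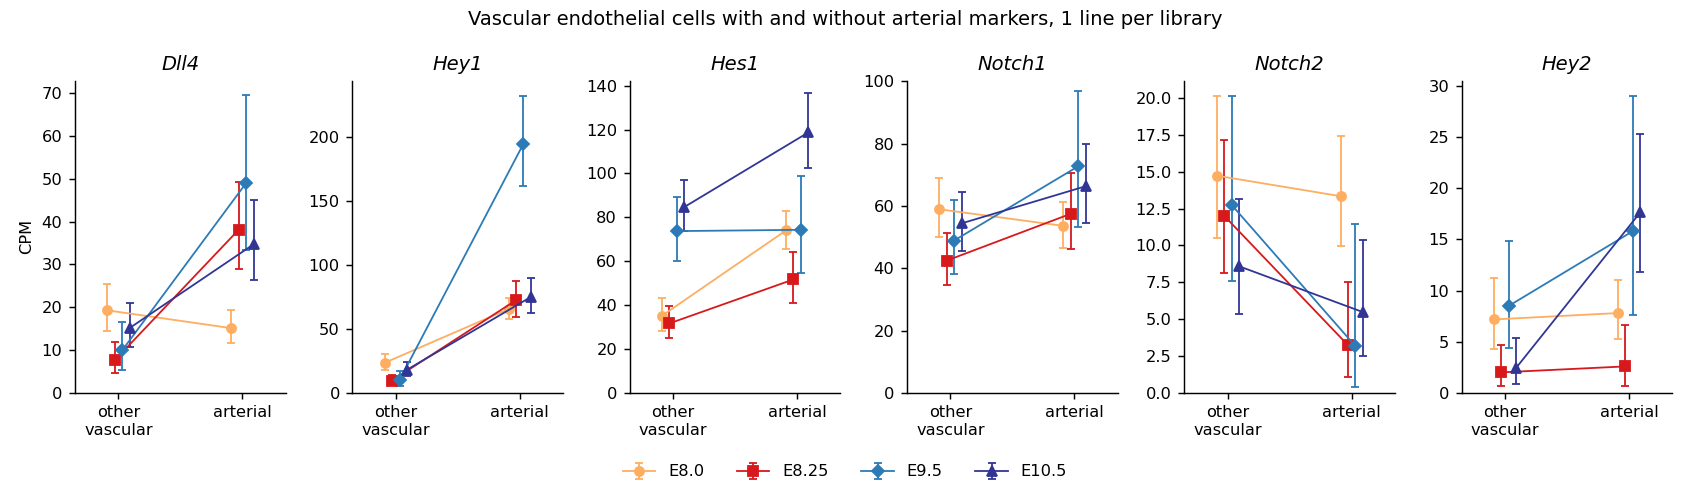
Level (CPM, linear axis from 0) of 6 members in vascular endothelial cells with fewer than 2 and with at least 2 arterial markers, 1 line per library, with exact Poisson 95% intervals. The Hey1 lines all go upward, the Dll4 line goes upward at E8.25, E9.5 and E10.5 but not at E8.0, and all 4 Notch2 lines go downward without passing the test (adjusted p = 0.987).

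Dll4 and Hey1 were also found in the same cells. With every cell thinned to 8000 UMIs, Hey1 was detected in 42.9% of 35 vascular endothelial cells with Dll4 and 18.2% of 258 without at E8.0, and in 55.0% of 20 and 8.62% of 116 at E8.25. At E9.5 the shares with Hey1 were 81.2% of 16 cells with Dll4 and 13.5% of 96 without, and at E10.5 32.3% of 31 and 14.5% of 172. The exact binomial intervals of the 2 shares did not overlap in the first 3 libraries and overlapped at E10.5 (16.7% to 51.4% against 9.63% to 20.7%). In endocardial cells the Hey1 share was 50% of 26 cells with Dll4 against 16.4% of 122 without at E8.0 and 58.8% of 17 against 19.5% of 133 at E10.5, and the intervals overlapped at E8.25 and E9.5. There the endocardial Hey1 share was 25% of 8 cells with Dll4 against 16.7% of 42 without at E8.25. At E9.5 it was 55.6% of 9 against 24.7% of 81. Hey1 was thus more often seen with Dll4 in all 8 sums, though the smallest held few cells with Dll4. How many other genes were more often seen with Dll4 in this way was not counted. The share with Notch1 was higher in the cells with Dll4 in 3 of 4 libraries in vascular and in 3 of 4 in endocardial cells. Its intervals overlapped in all 4 vascular and all 4 endocardial sums. Hey1 and Notch1 were not compared by a test. Cells of 1 library are not replicates and these shares were not tested.

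**Figure D4:**
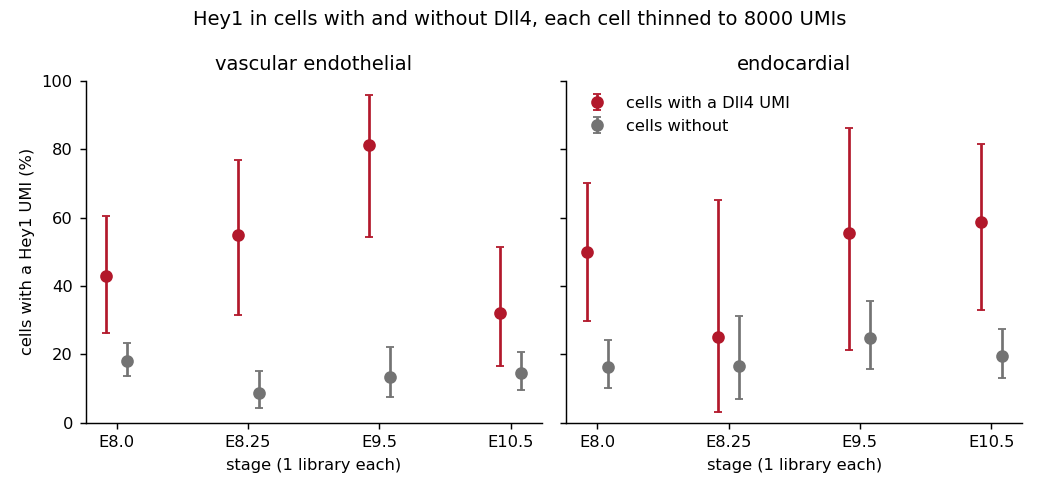
Share of cells (%) with at least 1 Hey1 UMI among cells with and without a Dll4 UMI, in vascular endothelial and endocardial cells of each library after thinning to 8000 UMIs, with exact 95% binomial intervals. The share was higher with Dll4 in every library and compartment, by the most at E9.5 in vascular cells (81.2% against 13.5%).

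The endocardium, the inner lining of the heart, was compared with vascular endothelium. No member differed by the test, and neither did any other gene, as 0% of 12483 were higher and 0% lower. By edgeR 408 genes and 1 member, Hey2, had an unadjusted p under 0.05, and DESeq2 also called 0 members. The count of 0 over all genes depended on the gate, as the 4-gene endocardial gate gave 13 genes higher and 1 lower. Hey2 held 9.52, 4.08, 30.1 and 19.4 CPM in endocardial and 7.55, 2.23, 10.8 and 8.56 CPM in vascular cells. It was higher in 4 of 4 libraries, beyond counting error at E9.5 and E10.5, with a log2 fold change of 1.07 ± 0.45 (SE, unadjusted p = 0.0270, edgeR adjusted p = 1.00). Dll4 stood at 21.3, 18.1, 12.5 and 16.7 CPM in endocardial cells, below the vascular level in the 3 later libraries (log2 fold change -0.22 ± 0.28, SE), but the direction turned with the 4-gene endocardial gate (0.34, adjusted p = 0.787). Notch1 was 53.7, 47.2, 61.3 and 79.3 CPM in endocardial cells, where it lay beyond counting error above the vascular level at E10.5. Nfatc1 is a sparse transcript, so endocardial cells without a captured UMI are counted as vascular.

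In cardiomyocytes the members took a different order from endothelium. Jag1, Hey2 and Hey1 were higher and Notch1, Notch2, Notch3 and Dll4 lower than in other cells. These are 3 members higher, where 16.8% of all genes were, and 4 lower, where 17.3% of all genes were. The median log2 fold change was -0.85 over the members and -0.04 over all genes.

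Jag1 was the only ligand that was higher in cardiomyocytes, with 38.6, 42.5, 30.9 and 51.8 CPM against 24.5, 10.9, 18.9 and 21.6 CPM in other cells. The groups did not overlap, and the log2 fold change of Jag1 was 1.21 ± 0.36 (SE, edgeR adjusted p = 0.0147). It fell out of the call without E8.25 (0.98, adjusted p = 0.0582), without E10.5 (1.15, adjusted p = 0.0523) and without the library block (adjusted p = 0.185). Over all 4 libraries 1 UMI of Dll1 and 1 of Dll4 were counted in cardiomyocytes, against 232 and 161 in other cells. The log2 ratios were -4.12 (-9.43 to -1.62) for Dll1 and -3.59 (-8.90 to -1.09) for Dll4, with counting intervals. In edgeR, Dll4 passed (adjusted p = 0.00506) and Dll1 did not (adjusted p = 0.0818), although DESeq2 called it (adjusted p = 0.0278). The Dll4 call was lost without E9.5 (adjusted p = 0.0688) and in thinned cells (adjusted p = 0.161).

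The receptors were all lower in cardiomyocytes. Notch2 was 12.5, 13.4, 18.1 and 16.4 CPM there, below every level in other cells, at a log2 fold change of -0.97 ± 0.19 (SE, edgeR adjusted p = 0.000568) and a call kept in all 13 alternatives. Notch1 was 4.21, 5.38, 1.19 and 2.07 CPM, a log2 fold change of -1.26 ± 0.39 (SE, edgeR adjusted p = 0.0171), and was lost in 5 of 13 alternatives, among them those without E9.5 (adjusted p = 0.0728) and without E10.5 (adjusted p = 0.0633). Notch3 was 7.41, 6.46, 9.67 and 8.98 CPM, a log2 fold change of -0.73 ± 0.21 (SE, edgeR adjusted p = 0.0135), and was lost in 3 of 13, among them that without E10.5 (adjusted p = 0.0925). Each receptor was lower in 4 of 4 libraries. Without the library block the adjusted p was 0.0827 for Notch1 and 0.162 for Notch3.

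Of the targets, Hey2 was 12.6, 3.23, 17.3 and 13.4 CPM in cardiomyocytes and 6.61, 3.45, 2.83 and 2.98 CPM in other cells. It was higher at 3 of 4 stages and level at E8.25, where it had 6 UMIs. The log2 fold change of Hey2 was 1.53 ± 0.41 (SE, 2.90-fold, edgeR adjusted p = 0.00677), with the call lost without E9.5 (1.18, adjusted p = 0.0884). Hey1 was 18.5, 22.1, 50.1 and 52.7 CPM in cardiomyocytes, a log2 fold change of 0.62 ± 0.22 (SE, edgeR adjusted p = 0.0394), which failed in 8 of 13 alternatives, without E8.25 (adjusted p = 0.148), E9.5 (adjusted p = 0.0873) or E10.5 (adjusted p = 0.126) and without the library block (adjusted p = 0.322) among them. Hes1 was lower in 4 of 4 libraries at a log2 fold change of -0.52 ± 0.30 (SE), which did not pass (edgeR adjusted p = 0.190). Heyl had 0, 0, 4 and 17 UMIs and did not pass (edgeR adjusted p = 0.152), but did without E10.5 (log2 -2.44, adjusted p = 0.0093).

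Cardiomyocytes were further divided by chamber markers, with Myl2 or Irx4 for ventricular and Nr2f1, Nr2f2 or Vsnl1 for atrial cells, and cells with markers of both or of neither set were left out. There were 126 ventricular and 47 atrial cells at E8.0, 144 and 207 at E9.5, and 52 and 133 at E10.5, and E8.25 had fewer than 20 of each. Hey2 was the ventricular member. It held 16.6 CPM in ventricular cells at E8.0 (39 UMIs) and 0 UMIs in atrial cells, which allows an atrial level of up to 3.19 CPM, so that the ventricular level was at least 5.19-fold higher by this floor of 3 counts. With the counting error of both sums, the lower exact limit of the log2 ratio was 2.01. At E9.5 Hey2 was 33.9 against 3.03 CPM, a log2 ratio of 3.48 (2.57 to 4.54), and the E10.5 levels were 38.2 against 5.84 CPM (log2 ratio 2.71, 1.76 to 3.75).

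Hey1 showed the opposite order at the late stages. It was 8.28 CPM in ventricular and 85.5 in atrial cells at E9.5, a log2 ratio of -3.37 (-4.08 to -2.73), and 29.5 against 56.6 CPM at E10.5 (log2 ratio -0.94, -1.60 to -0.33). At E8.0 Hey1 was 11.0 against 12.8 CPM, within counting error. The receptors Notch2 (7.10 against 34.5 CPM) and Notch3 (4.73 against 13.5 CPM) were also lower in ventricular cells at E9.5, beyond counting error, and within it at the other 2 stages. Jag1 was lower in ventricular cells at E8.0 (28.0 against 61.7 CPM, log2 ratio -1.14) and E10.5 (36.0 against 53.5 CPM, log2 ratio -0.57) and Hes1 higher at E9.5 (51.3 against 27.8 CPM, log2 ratio 0.88). Atrial cells had less of the 8 cardiomyocyte gate genes in sum than ventricular cells, namely 10319 against 22612 CPM, 17054 against 35072 and 23190 against 28538 CPM at the 3 stages. The part of this in the chamber values of Hey1, Hey2 and the other members was not tested. With 3 libraries no chamber difference was tested.

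**Figure D5:**
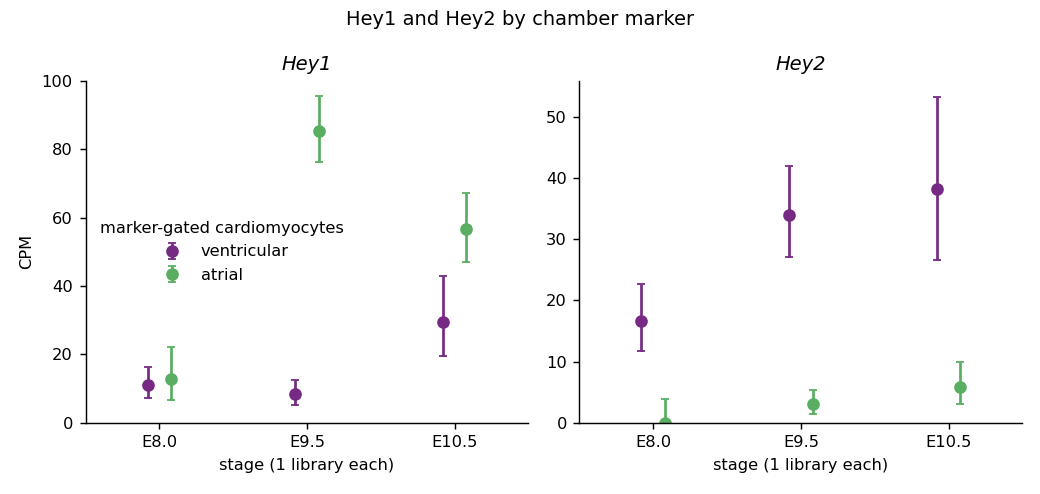
Level (CPM, linear axis from 0) of Hey1 and Hey2 in cardiomyocytes with ventricular or atrial markers at E8.0, E9.5 and E10.5, 1 library per point, with exact Poisson 95% intervals. Hey2 is higher in ventricular cells at the 3 stages, and Hey1 is higher in atrial cells at E9.5 (85.5 against 8.28 CPM) and E10.5 (56.6 against 29.5 CPM).

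Paraxial cells were compared with other cells because Notch signaling times the formation of somites. No member passed the test, where 0.248% of all genes were higher and 0.761% lower, and 6 members had an unadjusted p under 0.05 in edgeR, against 900 of all 12483 genes. DESeq2 called 0 members as well. The other cells included cells with 1 paraxial marker (1730 at E8.0 and 731 at E8.25), and their part in these results was not tested. Dll1 was 7.53, 1.81, 2.21 and 1.93 CPM in paraxial and 1.10, 0.849, 0.177 and 1.01 CPM in other cells. It was higher in 4 of 4 libraries, beyond counting error in the first 3, with a log2 fold change of 2.28 ± 0.67 (SE, edgeR adjusted p = 0.143). The paraxial Dll1 levels rested on 270, 75, 3 and 11 UMIs in stage order. Jag1 was lower in 4 of 4 libraries (-1.16 ± 0.39 SE, edgeR adjusted p = 0.245) and passed in thinned cells only (-1.52, adjusted p = 0.0314). Heyl was 0.725, 1.42, 6.64 and 4.74 CPM in paraxial and 0.226, 0.400, 2.72 and 4.99 CPM in other cells, above them in the first 3 libraries and level at E10.5 (1.19 ± 0.41 SE, edgeR adjusted p = 0.262), and passed without E10.5 (1.61, adjusted p = 0.0288). The paraxial Heyl levels rested on 26, 59, 9 and 27 UMIs. Notch2 and Notch3 lay within 0.02 of 0 on the log2 scale.

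The high Dll1 level at E8.0 came with markers of presomitic mesoderm, the unsegmented tissue behind the somites. In the 72 paraxial cells with Tbx6 or Msgn1, Dll1 had 163 UMIs, or 89.3 CPM, against 107 UMIs, or 3.14 CPM, in the 1584 paraxial cells without them. This is a log2 ratio of 4.83 (4.47 to 5.19). Notch1 was higher in the same cells (48.8 against 18.2 CPM, log2 ratio 1.42, 1.09 to 1.74), Hes1 slightly lower (70.7 against 86.3 CPM), and Jag1, Notch2, Notch3, Hey1 and Heyl within counting error. Of the thinned E8.0 paraxial cells with Dll1, 39.7% also held Notch1, against 12.1% of those without Dll1, a difference that was not tested.

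The rest of the pathway was read from a list of 47 genes, of which 42 were tested in each of the comparisons of compartments. The list also held 10 arterial and venous genes, among them Gja5, Gja4, Sox17 and Aplnr. In vascular endothelial cells 14 of the 42 were higher and 8 lower, at a median log2 fold change of 0.29, beside 18.3% and 16.5% of all genes. The 10 arterial and venous genes gave 6 of the higher and 0 of the lower genes. The 10 with the largest changes were Gja5 (6.93), Mfng (6.43), Gja4 (5.65), Sox17 (5.14), Aplnr (3.55), Nrarp (3.34), Psen2 (1.74) and Notch4 (1.66) on the higher side, and Dtx4 (-2.36) and Numbl (-1.76) on the lower. Mfng, which adds sugars to Notch receptors, stood at 29.4 ± 15.3 CPM (SD, n = 4 libraries) against 0.337 ± 0.0537 CPM in other cells. Nrarp, a target and feedback inhibitor of the pathway, was 41.4 ± 6.60 against 4.79 ± 3.50 CPM, and Notch4, the endothelial receptor outside the members, 9.70 ± 4.10 against 3.18 ± 1.06 CPM. Of the 6 genes of the nuclear complex, named after their values were seen, Maml2 rose while Rbpj, Maml3 and Spen fell (Rbpj by 0.37 on the log2 scale, edgeR adjusted p = 0.0217).

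In cardiomyocytes 6 of the 42 were higher and 7 lower, at a median of -0.18, where 16.8% and 17.3% of all genes were, so that the counts of the list lay near those of all genes. The largest were Gja5 (5.21), Neurl1b (4.49), Unc5b (1.30) and Hes6 (0.86) upward and Sox17 (-2.60), Cxcr4 (-2.32), Lfng (-2.06), Ephb4 (-0.89), Poglut1 (-0.61) and Maml1 (-0.61) downward. Neurl1b, which encodes a ubiquitin ligase that acts on Notch ligands, was 13.2 ± 10.2 CPM (SD, n = 4) against 0.750 ± 0.903 CPM. In paraxial cells the netrin receptor Unc5b (-1.62) was the only gene of the list called, and none of the 4 segmentation genes tested passed, at a median log2 fold change of 0.88. No gene of the list was called in endocardial cells, and of 30 tested in arterial cells Nr2f2 was the only one.

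The genes whose levels most resembled each member over the 23 sums of library and compartment were found by Pearson correlation of log2(CPM + 1) among 9203 genes, as a description without a test, since sums of a library share its depth and free RNA. Dll4 was closest to Bcl6b (r = 0.99), Scarf1 (0.99) and Gimap4 (0.98), and Notch1 to Ramp2 (0.97), Fgd5 (0.96) and Foxo1 (0.96). Jag1 was closest to Rgs5 (0.92), Rbpms2 (0.90) and R3hdm2 (0.88), and Dll1 to Tmem100 (0.85), Plcd1 and Stmn2 (0.83 each). Notch2 went with Vezf1 (0.95) and Zfp629 (0.93), and Notch3 with Robo1 (0.96), Zfp618 and Gas1 (0.95 each). Among targets, Hey1 was nearest to Armcx3 and Ctnna1 (0.97 each) and Akap12 (0.97), Hes1 to Zfp532 (0.95), Phldb2 and Fnbp1l (0.92 each), Hey2 to Zdhhc12 (0.90), Purb and Dnajb9 (0.89 each), and Heyl to Inafm1 (0.88), Col3a1 (0.87) and Serpinf1 (0.86). Between the members themselves, the highest correlations were of Dll4 and Notch1 (0.89), Notch2 and Notch3 (0.85), and Notch3 and Hes1 (0.82). Hey1 and Hey2 (0.77), Notch2 and Hes1 (0.75), and Dll1 and Notch1 (0.73) came next.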

How the data were processed

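Droplet-based single-cell RNA-seq (3' kit, version 2) was analysed for 4 libraries, 1 per stage, which is why stages were not tested. The authors aligned reads to mm10 with Cell Ranger (version 3.1.0, per the submitters' processing notes) and deposited raw UMI counts per gene and called cell, neither normalized nor pooled across libraries. The members and gene lists were chosen with earlier results of these data known. Cells with at least 1000 genes and at most 10% mitochondrial UMIs were retained (2884 to 7523 per library), and the highest Scrublet scores (scanpy 1.11.5) were removed at 0.8% per 1000 cells, since Scrublet's own threshold marked 0.304% at E8.25 and 0.197% at E9.5.

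Cardiomyocytes carried at least 4 of 8 genes (Tnnt2, Ttn, Myh6, Myh7, Tnnc1, Myl4, Myl7, Actn2) and at least 20 such UMIs per 10000. Blood cells had at least 500 globin UMIs per 10000 or at least 3 of 5 macrophage genes. The 3 cells in more than 1 class were left out. UMIs were summed per library and compartment of at least 20 cells (23 sums) and tested with edgeR 4.0.16 (R 4.3.3, quasi-likelihood, TMM, filterByExpr, library as a block, Benjamini-Hochberg, 0.05), with gate genes left out. The libraries pair the compartments, as all compartments of a library come from the same embryos. DESeq2 1.42.0 was an alternative, as were other scalings, filters, gates and libraries left out in turn. On simulated data the estimated fold changes lay close to those simulated, while many of the smaller simulated decreases were not called. Intervals are exact (Poisson, Clopper-Pearson or conditional binomial, 95%) and cover counting error only, and a sum with 0 UMIs was given a floor of 3. Python 3.11.15, scipy 1.17.1 and matplotlib 3.10.9 were used. Genes named beside the members were the called genes of the pathway list, at most 10 per comparison by size of change, those said to be named after their values were seen, and the 3 genes most like each member (mean of at least 5 CPM), of which 1 is not reported here. Promoters were taken from RefSeq, with coordinates on GRCm38.p6, the assembly mm10 names. Hes1, Hey1 and Heyl windows were not used here.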

Additional observations from a re-analysis of the deposited data

Results flagged for a closer look

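For 4 members the difference between endocardial and vascular endothelial cells had one sign in both early libraries (E8.0 and E8.25) and the opposite sign in both late libraries (E9.5 and E10.5). The share of all genes with such a change of sign was not counted, so the 4 is not read as particular to these members. The difference between early and late was not tested, and tissue changed with stage. For Notch3 the log2 ratio was -0.17 and -0.52 early and 0.92 and 0.41 late, so the late mean lay 1.01 above the early mean, and each interval included 0. For Hes1 it was -0.02 and -0.58 early and 0.39 and 0.45 late, a shift of 0.72, with the E8.25 and both late ratios beyond counting error. For Notch1 it was -0.05 and -0.03 early and 0.12 and 0.42 late, a shift of 0.31, with only the E10.5 ratio beyond counting error. For Jag1 it was 0.07 and 1.24 early and -0.30 and -0.05 late, a shift of -0.82, from 7 or 8 endocardial UMIs in 2 of the libraries. Each Jag1 interval included 0.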

How the results depend on the processing

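Of 447 values of members under the alternatives other than leaving out a library, 406 kept their direction and side of the threshold, 16 lost and 8 gained a call and 17 changed sign. Without the library block 3 members were called in cardiomyocytes and 0 in arterial cells, against 7 and 1 with it. Thinned cells gave 1 call in paraxial and 2 in arterial cells, no low-count filter 3 in arterial cells and looser gates 0. With libraries left out in turn, calls numbered 3 to 7 in cardiomyocytes, 0 to 1 in paraxial, 1 to 2 in arterial and 5 to 7 in vascular endothelial cells. The count of members that differed between E8.0 and E10.5 lay between 8 and 9, while 19 of 50 log2 ratios of these stages moved beyond their counting intervals under the alternatives. The causes were not tested.

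Sign changes were all of uncalled values. In endocardial cells, Hey1 (-0.06) became 0.14 with stricter gates, 0.022 with looser gates, 0.011 when thinned (3 libraries) and 0.54 with the 4-gene gate, which made Dll4 0.34, and Jag1 (0.12) became -0.0068 with looser gates. In paraxial cells, Notch2 became -0.033 and Notch3 -0.049 by library totals, -0.011 and -0.025 without a filter, Notch2 -0.090 with looser gates and -0.062 without doublet removal, Notch3 -0.16 with stricter gates and -0.11 when thinned, and Hes1 0.0062 without the library block and 0.021 with stricter gates. Arterial Hes1 became -0.19 when thinned. With libraries left out, endocardial values ranged from -0.32 to 0.66 for Heyl, -0.040 to 0.18 for Jag1 and -0.028 to 0.33 for Notch3, and paraxial values from -0.19 to 0.25 for Hes1, -0.054 to 0.053 for Notch2 and -0.061 to 0.043 for Notch3.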
